A study of Mus musculus with 36 samples.

Results

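The circular RNAs (circRNAs) made from Ssbp2, Hivep2 and Dennd1b were followed in the mouse hippocampus and frontal cortex over the light-dark cycle. A circRNA was taken when both of its ends lay inside one of these genes on the gene's strand. This gave 70 circles of the 33261 listed in the deposited tables, 19 of Ssbp2, 19 of Hivep2 and 32 of Dennd1b. Ssbp2 was chosen by the values of its main circle over time in the hippocampus, where a 24-h rhythm had been called in these same samples. Which values led to Hivep2 and Dennd1b is not given in the sources used here. The hippocampus time courses are therefore described without a test, and the tests for Hivep2 and Dennd1b are not independent of a choice made with results in view.

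The samples were total RNA from C57BL/6 mice (C57BL6/N in the study's methods), males 9 to 10 weeks old, perfused before the hippocampi and frontal lobes were dissected. The mice lived under a normal cycle of light and dark. Tissue was taken in the light phase at ZT1, ZT5 and ZT9 and in the dark phase at ZT13, ZT17 and ZT21, where ZT (zeitgeber time) counts hours from lights-on. There were 3 samples per time point and tissue, 36 in all. Nothing in the labels says whether a hippocampus and a frontal cortex sample with the same number came from 1 animal, or that the samples of a group came from separate animals, so p-values measure the spread between these samples.

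A circRNA forms when the end of an exon is spliced back to the start of an exon upstream, and a read across that head-to-tail junction is called a circular read. Lacking free ends, circRNAs outlive most linear RNAs, and they are abundant in neurons. Ssbp2 encodes a partner of LDB1 in transcription complexes built on LIM-domain proteins. Hivep2 encodes a large zinc finger protein that binds enhancer motifs related to those of NF-kappa-B. Dennd1b encodes a DENN-domain protein that activates the small GTPase Rab35 in vesicle traffic.

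The authors deposited counts of circular reads without normalization, and the smallest count above 0 was 2, so that a 0 stands for 0 or 1 read. Samples held 6754 to 73252 circular reads in the hippocampus (median 21924) and 8107 to 34803 in the frontal cortex (median 20301). Hippocampus ZT13 replicate 1 and frontal cortex ZT9 replicate 3 had the fewest and hippocampus ZT1 replicate 3 the most. Several results that rest on these 3 samples of extreme depth are given without them too. Circles of the 3 genes took 1.11% of the circular reads in the hippocampus against 1.15% in the frontal cortex. Hippocampus marker genes fixed as a list (4 of 6 with circles) summed to between 7.40 and 29.0 reads per 10000 in the hippocampus and between 0 and 7.10 in the frontal cortex. Cortex markers (5 of 8) summed to 0 to 11.5 and 3.90 to 18.6, striatum markers (3 of 5, with Drd1 and Drd2 listed in no circle) to 0 to 1.62 and 0 to 4.79, the 4 oligodendrocyte markers with circles (Mog in none) to 0 to 4.69 and 0 to 2.23, and astrocyte markers (2 of 4, with Gfap and Aqp4 in none) to 0 to 3.67 and 0 to 2.03. Their part in the differences between tissues was not tested. In tissue RNA, fewer cells of a type and less RNA per cell cannot be told apart.

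The junctions that define the best covered circles of Ssbp2 and Dennd1b are shown because the circles of each gene differ in where the same few exon ends are joined. Each line gives 15 bases from the end of the last exon in lower case, followed by 15 bases from the start of the first exon in capitals, read 5′ to 3′ from the GENCODE M21 transcripts Ssbp2-201 and Dennd1b-202 (GRCm38, both on the plus strand).

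Ssbp2 exon 4 to exon 2: gccttccatgattatGTTAGCACTCTACGT
Ssbp2 exon 5 to exon 2: ccagggttctttcagGTTAGCACTCTACGT
Ssbp2 exon 3 to exon 2: acattcttggtggtgGTTAGCACTCTACGT
Dennd1b exon 9 to exon 4: agcaaattaagcactGAAGTTCTGCAGAGC
Dennd1b exon 9 to exon 6: agcaaattaagcactTTACTTGCCATGGTT
Dennd1b exon 14 to exon 4: cagctctttaagcagGAAGTTCTGCAGAGC
Dennd1b exon 14 to exon 6: cagctctttaagcagTTACTTGCCATGGTT
Dennd1b exon 14 to exon 10: cagctctttaagcagTTAACTGCCTGTCTC
Dennd1b exon 14 to exon 11: cagctctttaagcagTGCCCCAATGCCATA

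Nearly all circular reads of Ssbp2 shared 1 start. The start of exon 2 was used by 11 of the 19 circles and by 98.9% of the 3705 circular reads of the gene. The main circle (chr13:91524585-91564694) joined the end of exon 4 to it, had 3078 reads over the 36 samples and was found in every one. The 5 circles that ended at exon 4 together took 83.9% of the reads. Its exons 2, 3 and 4 add up to 220 nt and code for residues 21 to 94, and 220 is not a multiple of 3.

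The other Ssbp2 circles found in at least 2 replicates of a time point differed mostly in their last exon. A circle from exon 2 to position 91604455, which is no annotated exon end, had 289 reads and was also found in all 36 samples. A circle of exons 2 to 5 had 181 reads in 31 samples, and a circle of exons 2 to 3 had 40 reads in 15 samples. A circle that began at position 91492321, upstream of exon 2, and ended at exon 4 had 22 reads in 10 samples. In 18 samples, 59 reads ended 19 nt downstream of the usual end of exon 4, at 91564713. The retained-intron transcript Ssbp2-208 holds these bases, shown with the last 9 bases of exon 4 before them and the added 19 nt in capitals.

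Ssbp2 exon 4 and the 19 nt after it: catgattatGTAAGAGAGCGCGCACTTGgt

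The bases GT, the usual start of an intron, followed the exon at the annotated end and again at the alternative end. The other 13 Ssbp2 circles had 2 to 4 reads each and were found in at most 2 samples.

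The main Hivep2 circle (chr10:14004201-14066684) held exons 2 and 3 of the 13 exons of Hivep2-204, 75 and 102 nt, and lay wholly before the start codon. It had 891 reads and was found in all 36 samples. The end of exon 3 was used by 83.3% of the 1345 circular reads of Hivep2 and the start of exon 2 by 75.0%. A further 14.6% began 3 nt upstream of exon 2, at 14004198, in a circle that otherwise matched the main one and had 196 reads in 29 samples. Since the starts lie so close, how reads were divided between these circles is uncertain.

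Further Hivep2 circles used ends that are not annotated. Position 14086082 ended a circle from exon 2 with 86 reads in 25 samples and a circle from exon 3 with 76 reads in 19 samples. A circle from exon 2 to 14076962 had 24 reads in 9 samples, 19 of them in the frontal cortex. A circle from 14055392 to exon 3 had 20 reads in 8 samples, 16 of them in the hippocampus. The other 13 circles had 2 to 8 reads and were found in at most 4 samples.

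Dennd1b differed from both in that no circle held most of its reads. Its 3901 circular reads were spread over many pairings of annotated exon ends, as the plot of junctions by exon shows. Exon 4 began 10 circles and 50.0% of the reads, and exon 6 began 28.4%. Exon 9 ended 53.1% of the reads and exon 14 ended 32.7%. Most reads therefore lay in circles with a start at exon 4 or 6 and an end at exon 9 or 14. The circle of exons 10 to 14 (chr1:139081173-139110485), taken as the gene's main circle when the genes were chosen, ranked 3rd with 392 reads and was the only Dennd1b circle found in all 36 samples. It was exceeded by the circle of exons 4 to 9 (chr1:139040000-139062971) with 1280 reads in 35 samples and by that of exons 6 to 9 (chr1:139053346-139062971) with 759 reads in 34 samples. Exons 4 to 9 (486 nt, residues 43 to 204) and exons 10 to 14 (477 nt, residues 205 to 363) are neighbouring stretches of the coding sequence, each a multiple of 3 in length. Both begin and end at whole codons inside the coding sequence, so the 0 stop codons in frame over 1 turn of the circle follow from their position.

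The remaining Dennd1b circles were mostly new combinations of ends already seen. Exon 14 closed the circles from exon 4 (282 reads, 35 samples), exon 11 (279 reads, 32 samples), exon 6 (259 reads, 32 samples) and exon 8 (59 reads, 16 samples). Exon 10 closed those from exon 4 (120 reads, 26 samples) and exon 6 (34 reads, 11 samples), and exon 19 those from exon 4 (111 reads, 28 samples), exon 6 (22 reads, 9 samples) and exon 10 (9 reads, 4 samples). Exon 4, the most used start, thus reached most of the ends downstream. From it, circles also closed at exon 5 (75 reads, 21 samples), exon 12 (60 reads, 19 samples) and exon 7 (10 reads, 5 samples). Exon 3 began circles to exon 5 (46 reads, 16 samples) and exon 9 (32 reads, 11 samples). Exon 6 began a circle to exon 13 (13 reads, 5 samples) and one to exon 15, whose 17 reads came from 7 hippocampus samples while the frontal cortex was listed at 0. The other 13 circles had 2 to 6 reads in at most 3 samples.

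**Figure D1:**
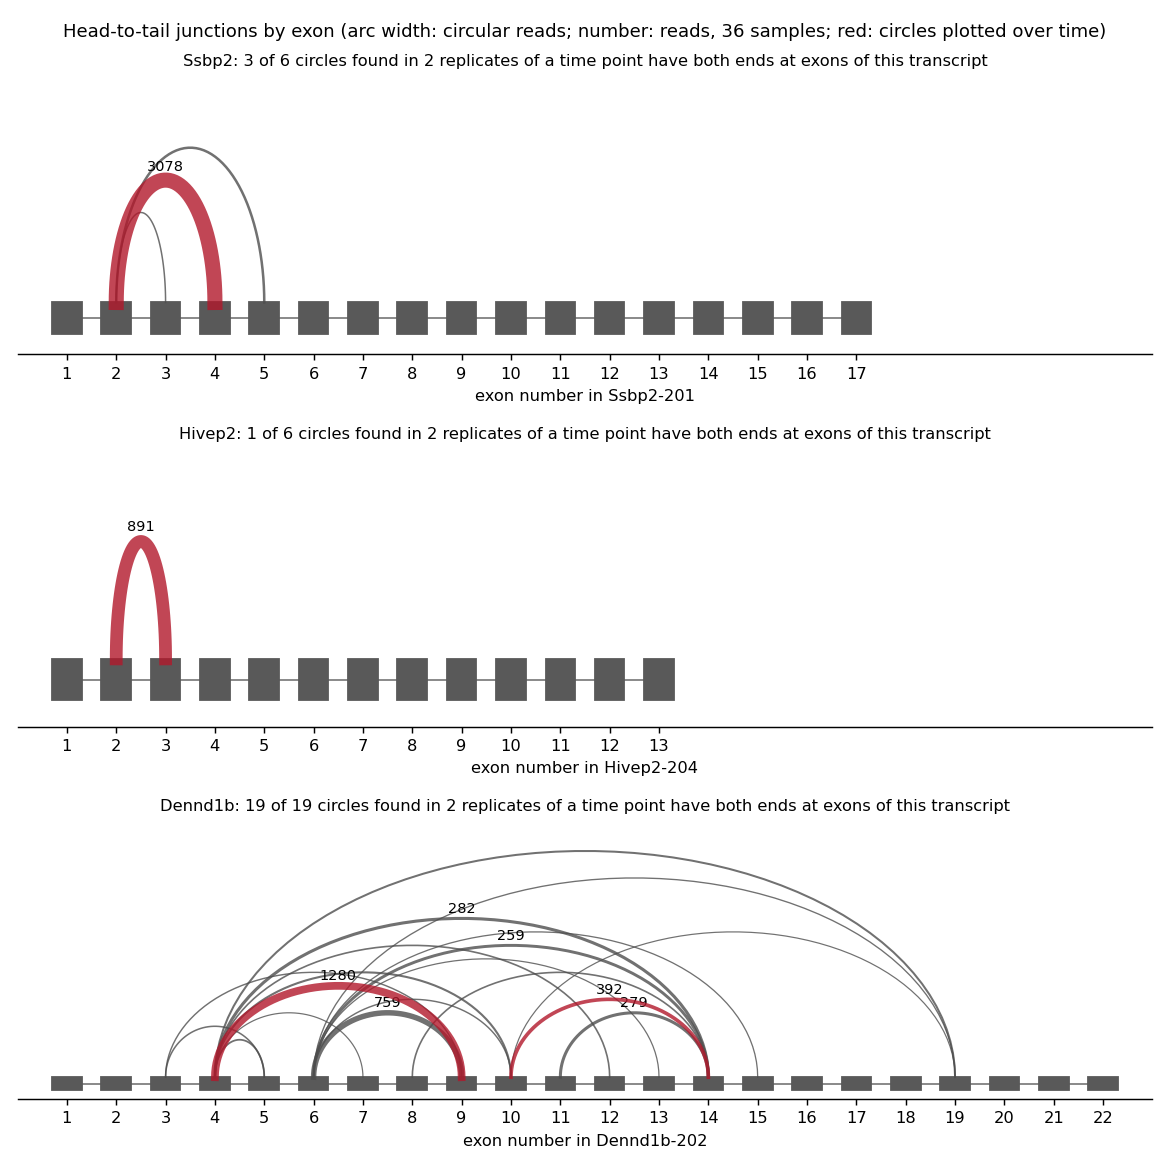
Circles of Ssbp2, Hivep2 and Dennd1b drawn as arcs from the first to the last exon, with the exon number of the named transcript on the horizontal axis, arc width growing with the circular reads over 36 samples and the height of an arc set only by the number of exons. Red arcs are the circles followed over time below; 1 arc stands for most Ssbp2 and Hivep2 reads, while Dennd1b reads are spread over 19 arcs, and circles with an unannotated end are not drawn.

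Of the 70 circles, 42 were found in both tissues, 16 in the hippocampus alone and 12 in the frontal cortex alone, and 22 were found in 1 sample. Of all 33261 circRNAs, the deposited tables listed 23734 for the hippocampus and 19811 for the frontal cortex, so most were in 1 tissue alone. Whether the circles of these genes differ from that was not tested. The 28 circles of these genes found in 1 tissue were shallow. Counts under 2 are not listed, so a lower level in the other tissue was not detectable at this depth. Among 6581 host genes, Dennd1b ranked 15th by circular reads in the hippocampus (frontal cortex, 23rd), Ssbp2 26th (16th) and Hivep2 118th (78th).

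Levels over time are given as circular reads per 10000 TMM-scaled reads of the circRNAs tested in that tissue, with errors as SD. In the hippocampus the main Ssbp2 circle was highest in the first part of the light phase. It stood at 77.1, 84.1 and 66.9 in the 3 samples at ZT1 and at 74.4, 84.9 and 76.5 at ZT5. The samples at ZT9 gave 58.7, 57.0 and 61.0, and those at ZT13 gave 31.7, 53.5 and 59.7. At ZT17 it stood at 59.8, 47.8 and 48.7, and at ZT21 at 66.5, 68.0 and 66.7.

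All samples at ZT1 and ZT5 thus lay above all samples at ZT9, ZT13 and ZT17, while the 9 light and the 9 dark samples overlapped (57.0 to 84.9 and 31.7 to 68.0). The mean moved from 78.6 ± 5.6 at ZT5 to 48.3 ± 14.7 at ZT13 (SD, n = 3). A fitted 24-h cosine had its peak at ZT 2.28 and a peak-to-trough fold of 1.64. The dark samples were lower by a log2 fold change of -0.34 (SE 0.13). Since Ssbp2 was chosen by these values, the SE and the order of the samples only describe them and are not a test. The lowest value, 31.7 at ZT13 replicate 1, rested on 15 reads. The other ZT13 samples lay within the range at ZT17, 47.8 to 59.8, so the lowest mean at ZT13 rests on that replicate. Without that sample and ZT1 replicate 3 the log2 fold change was -0.31 (SE 0.11), and with no scaling for depth at all it was -0.62.

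**Figure D2:**
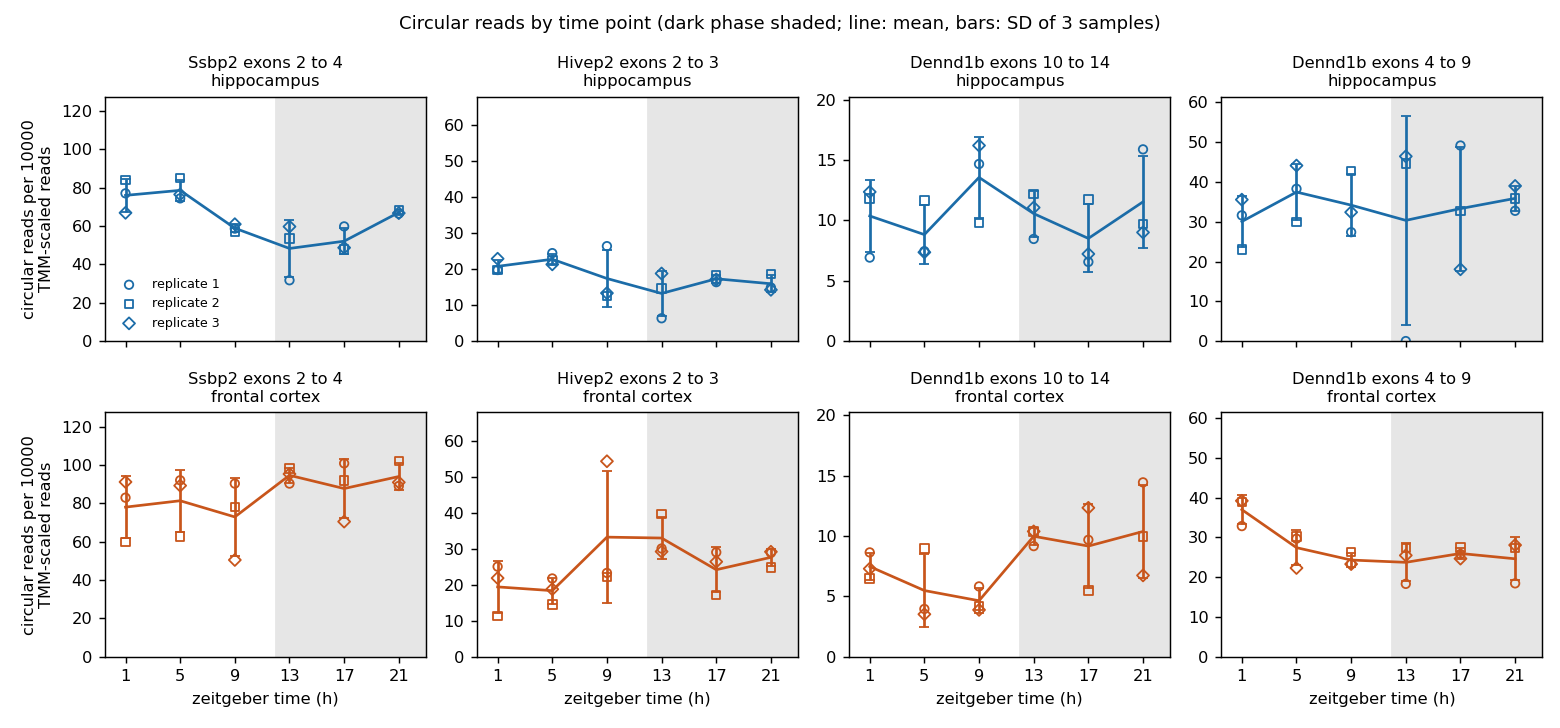
Circular reads per 10000 TMM-scaled reads (vertical axis, one scale per circle) against zeitgeber time in hours for 4 circles in the hippocampus (blue, upper row) and frontal cortex (orange, lower row), with 1 symbol per sample, the dark phase shaded, lines through the means and bars of 1 SD (n = 3). The Ssbp2 circle runs from 78.6 at ZT5 to 48.3 at ZT13 in the hippocampus, a low that rests on ZT13 replicate 1. Its 3 highest means in the frontal cortex are those of the dark phase (87.7 to 94.7). The exons 10 to 14 circle of Dennd1b is lowest at ZT9 in the frontal cortex.

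In the frontal cortex the same Ssbp2 circle had its 3 highest means in the dark phase. The 9 light samples ranged from 50.5 to 92.1 with a median of 83.0, and the 9 dark samples from 70.5 to 102.0 with a median of 91.8. These ranges overlapped. The dark phase was higher by a log2 fold change of 0.24 (SE 0.14, 95% confidence interval -0.05 to 0.53), which did not pass the test (edgeR quasi-likelihood test with Benjamini-Hochberg adjustment, adjusted p = 0.993). Its rhythm had a peak-to-trough fold of 1.21 and an adjusted p of 0.916 by the same test. Whether the time courses of the tissues differ from each other was not tested.

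The other well covered Ssbp2 circle, from exon 2 to 91604455, had its higher median in the dark phase in both tissues. Its 9 light hippocampus samples ranged from 3.68 to 8.02 per 10000 (median 7.44) and its 9 dark samples from 4.42 to 10.6 (median 8.12). In the frontal cortex they ranged from 1.98 to 11.9 (median 5.83) and from 2.41 to 13.5 (median 7.55). These values rest on 4 to 19 hippocampus reads and 2 to 13 frontal cortex reads per sample. The log2 fold change of dark against light was 0.17 (SE 0.27) in the hippocampus and 0.16 (SE 0.36) in the frontal cortex. Its interval in the frontal cortex, -0.58 to 0.90, includes the value of the main circle.

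The main Hivep2 circle was also at its highest mean in the hippocampus at ZT5, with 24.5, 22.5 and 21.3 per 10000 in the 3 samples. Its lowest mean was at ZT13, where the samples gave 6.34, 14.6 and 18.8. The 6.34 was replicate 1, with 3 reads of 6754 circular reads in all. The samples at ZT21 spanned 14.2 to 18.7, so the low at ZT13 rests on that replicate. The 9 light samples ranged from 12.5 to 26.4 (median 21.3) and the 9 dark samples from 6.34 to 18.8 (median 16.4). The groups overlapped, and ZT9 alone spanned 12.5 to 26.4. The fitted log2 fold change of dark against light was -0.35 (SE 0.17), or -0.25 (SE 0.17) without ZT13 replicate 1 and ZT1 replicate 3, and the fitted peak was at ZT 3.22 with a peak-to-trough fold of 1.45.

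In the frontal cortex the 9 light samples of the Hivep2 circle ranged from 11.4 to 54.4 (median 21.9) and the 9 dark samples from 17.1 to 39.7 (median 29.1). The highest light sample, ZT9 replicate 3, had 28 reads of 8107 in all, and the next highest light sample stood at 25.1. The dark phase was higher by a log2 fold change of 0.30 (SE 0.20, 95% confidence interval -0.11 to 0.71, edgeR adjusted p = 0.993). Over leaving out each of the 18 samples this value ran from 0.26 to 0.46. Its rhythm test gave a peak-to-trough fold of 1.56 with an edgeR adjusted p of 0.916.

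The circle of Dennd1b exons 10 to 14 varied little between phases in the hippocampus, where 9 light samples ranged from 6.91 to 16.2 per 10000 (median 11.7) and 9 dark samples from 6.55 to 15.9 (median 9.72). The log2 fold change of dark against light was -0.10 (SE 0.21). In the frontal cortex the light samples ranged from 3.52 to 8.98 (median 5.83) and the dark samples from 5.48 to 14.4 (median 9.95). The ZT9 samples there stood at 5.83, 4.22 and 3.88, and the ZT13 samples at 9.17, 10.4 and 10.4. The groups of 9 overlapped, with 2 to 18 reads per sample behind these values. The log2 fold change was 0.74 (SE 0.28, 95% confidence interval 0.16 to 1.33), with an unadjusted p of 0.0151 and an adjusted p of 0.993 over all 518 circRNAs tested by edgeR, so it did not pass.

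The course of the most abundant Dennd1b circle, exons 4 to 9, was not tested against that one. Its means in the frontal cortex were 37.0 ± 3.6 per 10000 at ZT1 and between 23.7 and 27.4 at the other time points (SD, n = 3). The dark phase differed by a log2 fold change of -0.23 (SE 0.15, 95% confidence interval -0.54 to 0.08, edgeR adjusted p = 0.993). In the hippocampus its 9 light samples ranged from 23.0 to 44.1 (median 32.4) and its 9 dark samples from 0 to 49.2 (median 35.9), the 0 being ZT13 replicate 1. The log2 fold change there was 0.03 (SE 0.25), and 0.22 (SE 0.17) without that sample and ZT1 replicate 3. The other Dennd1b circles tested had log2 fold changes of dark against light between -0.06 and 0.00 in the frontal cortex and between -0.45 and 0.00 in the hippocampus. For exons 11 to 14 the frontal cortex value rested on 1 sample, ZT9 replicate 2, which held all 10 reads of that time point. Without it a group with no reads was left, and the value was 1.71 and still did not pass (edgeR adjusted p = 0.806).

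In the frontal cortex 8 of the 70 circles had enough reads to be tested over time, and none passed a test. The background was 0% of the 518 circRNAs for the 24-h rhythm (25 at an unadjusted p under 0.05), 0.193% for any difference among the 6 time points (12 unadjusted) and 0% for dark against light (16 unadjusted), by edgeR. DESeq2 called 1, 0 and 0, none of them a circle of these genes. At an unadjusted p under 0.05 edgeR had 0, 0 and 1 of the 8 circles, the last being Dennd1b exons 10 to 14. The 1 circRNA called among time points was from Ptms (chr6:124914408-124914710, edgeR adjusted p = 0.0334), named after its value was seen. Summed per host gene, the dark-light log2 fold changes were 0.21 for Ssbp2, 0.29 for Hivep2 and 0.03 for Dennd1b, and the lowest edgeR adjusted p over these was 0.978.

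The tissues differed in level for circles of all 3 genes, with Ssbp2 and Hivep2 higher in the frontal cortex and Dennd1b higher in the hippocampus. Both tissues were fitted together for this comparison, with 18 samples each. Of 710 circRNAs tested, edgeR called 217 or 30.6% (100 higher in the frontal cortex, 117 in the hippocampus). With no scaling for depth the split of calls was 32 and 118. Of the 10 circles of these genes tested, 4 were called, 2 in each direction, which is a share close to that background.

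The main Ssbp2 circle ranged from 28.3 to 80.4 per 10000 in the hippocampus (median 59.8) and from 43.5 to 95.3 in the frontal cortex (median 83.5). The ranges overlapped while the frontal cortex was higher by a log2 fold change of 0.41 (SE 0.10, edgeR adjusted p = 0.00197), a 1.33-fold difference. With no scaling for depth it was 0.22 and did not pass (edgeR adjusted p = 0.469). The circle from exon 2 to 91604455 did not pass, at a log2 fold change of 0.09 (SE 0.21, 95% confidence interval -0.34 to 0.53, edgeR adjusted p = 0.805). Whether these circles of Ssbp2 differ in this respect was not tested.

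The main Hivep2 circle ranged from 5.67 to 24.6 in the hippocampus (median 17.4) and from 10.2 to 46.9 in the frontal cortex (median 23.4). It was higher in the frontal cortex by a log2 fold change of 0.46 (SE 0.13, edgeR adjusted p = 0.00587), or 0.37 (edgeR adjusted p = 0.0110) without the 3 samples of extreme depth. It did not pass with no scaling (0.23, edgeR adjusted p = 0.451) or with no filter on low counts (0.39, edgeR adjusted p = 0.199). The circle that starts 3 nt upstream had a log2 fold change of 0.88 (SE 0.38, edgeR adjusted p = 0.0801), which DESeq2 called (adjusted p = 0.0276).

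All 6 Dennd1b circles tested had estimates toward the hippocampus, and 2 of them passed. The circle of exons 10 to 14 ranged from 6.21 to 15.3 in the hippocampus (median 9.73) and from 3.15 to 13.5 in the frontal cortex (median 7.39), a log2 fold change of -0.49 (SE 0.16, edgeR adjusted p = 0.0201) that did not pass with no filter on low counts (edgeR adjusted p = 0.209). The circle of exons 6 to 14 had the lowest estimate. It was not among the 8 circles with enough reads to be tested in the frontal cortex alone. It thus entered this comparison through the hippocampus, where it was higher, and its estimate carries that selection. With no filter on low counts it still passed. It ranged from 1.55 to 13.7 in the hippocampus (median 8.17) and from 0 to 10.4 in the frontal cortex (median 3.12), where 4 of the 18 samples were listed at 0. Its log2 fold change was -1.29 (SE 0.30, edgeR adjusted p = 0.00124). It came to -1.90 without frontal cortex ZT9 replicate 2, which held all 3 reads of that time point, so that a group with no reads was left.

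The circles of exons 4 to 9, 4 to 14, 6 to 9 and 11 to 14 did not pass by edgeR, at log2 fold changes of -0.37, -0.47, -0.30 and -0.23 and adjusted p between 0.0801 and 0.617. That of exons 11 to 14 was -1.11 without frontal cortex ZT9 replicate 2 (edgeR adjusted p = 0.0507) and -0.11 without hippocampus ZT17 replicate 3. The first of these samples held all 10 reads of its time point, so that a group with no reads was left. The most abundant of them, exons 4 to 9, depended on hippocampus ZT13 replicate 1, where it was listed at 0. Without that sample it was lower in the frontal cortex by a log2 fold change of -0.48 (edgeR adjusted p = 0.00119), and DESeq2 called it with all samples (adjusted p = 0.0435).

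Summed per host gene over the circles found in 2 replicates of a time point, all 3 genes passed, against 33.0% of 718 host genes. Ssbp2 was higher in the frontal cortex by a log2 fold change of 0.37 (SE 0.08, edgeR adjusted p = 0.000242) and Hivep2 by 0.47 (SE 0.12, edgeR adjusted p = 0.00270). Dennd1b was higher in the hippocampus, at -0.41 (SE 0.09, edgeR adjusted p = 0.000732). Without the 3 samples of extreme depth these values were 0.34, 0.35 and -0.44, and all 3 passed. Linear RNA of the host genes was not used here, so the level of a gene and the share of it that is made circular cannot be told apart.

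**Figure D3:**
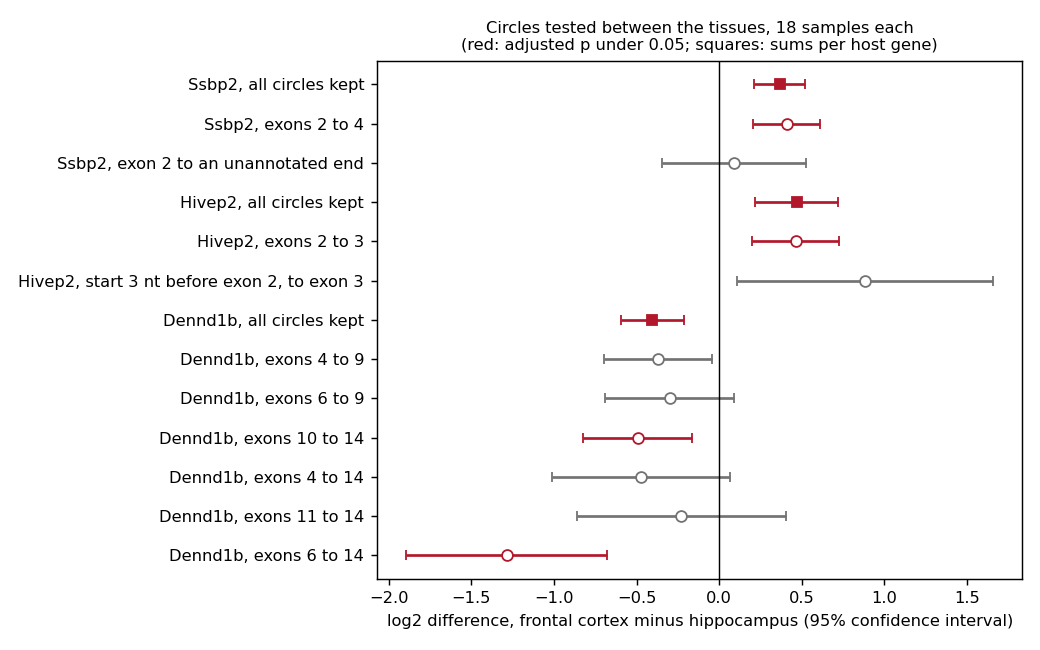
Log2 difference of the frontal cortex minus the hippocampus (horizontal axis) with its 95% confidence interval for the 10 circles tested (open circles) and the sums per host gene (squares), 18 samples per tissue, with red for an edgeR adjusted p under 0.05. Ssbp2 and Hivep2 lie to the right of 0, with their sums at 0.37 and 0.47, and all Dennd1b points lie to the left, with exons 6 to 14 at -1.29. That circle had too few reads to be tested in the frontal cortex alone.

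The share of a gene's circular reads taken by its most abundant circle is a ratio within a sample and free of scaling between samples. For Ssbp2 it was 81.0% ± 5.0 in the hippocampus against 83.6% ± 5.7 in the frontal cortex (SD, n = 18 each), with ranges of 68.2% to 88.1% and 74.3% to 94.9%. For Hivep2 it was 68.6% ± 15.2 and 67.0% ± 11.6, and for the Dennd1b circle of exons 4 to 9 it was 31.4% ± 10.3 and 34.1% ± 6.7. The samples of the tissues overlapped for each gene, and none of the 3 differences passed a two-sided permutation test of 100000 resamples (adjusted p = 0.629, 0.948 and 0.793). Over 887 host genes, 0.338% passed (100 at an unadjusted p under 0.05), namely Arpp21, Erc2 and Slc8a1, named after their values were seen. Circles with 1 read in a sample are not listed, so that minor circles drop out where depth is low; hippocampus ZT13 replicate 1 had 3 Hivep2 reads, all of the main circle, and 19 Dennd1b reads, none of exons 4 to 9.

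**Figure D4:**
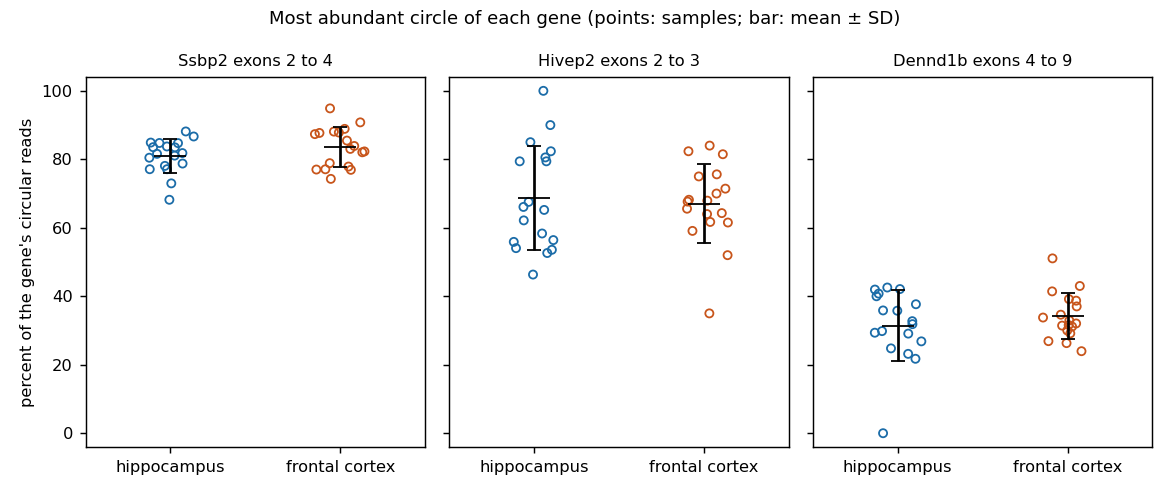
Percent of the gene's circular reads (vertical axis) taken by the most abundant circle of Ssbp2, Hivep2 and Dennd1b in each of 18 hippocampus (blue) and 18 frontal cortex (orange) samples, with bars for the mean and SD. The tissues overlap in each panel, at means of 81.0% and 83.6% for Ssbp2, 68.6% and 67.0% for Hivep2 and 31.4% and 34.1% for Dennd1b.

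Each relative of the 3 genes gave fewer circular reads than any of the 3. In the list of SSBP, LDB and LMO genes, 3 of 8 had circles, 9 in all, led by Ldb2 with 53 reads in the hippocampus against 58 in the frontal cortex. Ssbp3, the closest relative in name, had 2 and 2. Both HIVEP relatives had circles, led by Hivep1 with 52 reads in the hippocampus against 176 in the frontal cortex. Of 14 DENN-domain and Rab35 genes, 10 had circles, 103 in all. Dennd1a, another activator of Rab35, led them with 423 reads in the hippocampus against 345 in the frontal cortex, spread over 31 circles of which none had enough reads to be tested. Across these lists 1 circle was tested between the tissues, from Dennd2a, and it did not pass (log2 fold change -0.71, SE 0.32, edgeR adjusted p = 0.0892); the median over all 710 circRNAs tested was -0.02.

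As a description of patterns over the 18 samples of a tissue, which share depth and scaling, the circRNAs most like each circle were ranked by Pearson r of log2 TMM-normalized levels. In the hippocampus the main Ssbp2 circle was most like circRNAs of Cpsf6 (r = 0.81) and Ttc3 (r = 0.79), and the main Hivep2 circle most like those of Cpsf6 (r = 0.85) and Cnot6l (r = 0.84). In the frontal cortex the Ssbp2 circle was nearest to Pcmtd1 (r = 0.81) and Lrp1b (r = 0.81), and the Hivep2 circle to Apbb2 (r = 0.85) and Eri3 (r = 0.76). For Dennd1b exons 10 to 14 the nearest were Myo9a (r = 0.60) and Abca8b (r = 0.59) in the hippocampus and Kansl1 (r = 0.66) and Ubl3 (r = 0.57) in the frontal cortex. The circle of Dennd1b exons 4 to 9 was nearest to Ppp1r13b (r = 0.97) and Dlgap1 (r = 0.96) in the hippocampus, where ZT13 replicate 1 was listed at 0, and to Ylpm1 (r = 0.60) and Fars2 (r = 0.59) in the frontal cortex. None of the 2 nearest circRNAs of a circle in 1 tissue was among its 2 nearest in the other. The main Ssbp2 and Hivep2 circles had r = 0.72 with each other in the hippocampus but r = 0.07 in the frontal cortex. In hippocampus ZT13 replicate 1 both circles were at their lowest level in that tissue, on 15 and 3 reads. In frontal cortex ZT9 replicate 3 the Ssbp2 circle was at its lowest, on 26 reads, and the Hivep2 circle at its highest, on 28. These samples had the fewest circular reads of their tissue, and their part in the r values was not tested. Dennd1b exons 10 to 14 had r of 0.04 and 0.05 with the main Ssbp2 and Hivep2 circles in the hippocampus. In the frontal cortex these values were 0.26 and 0.16.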

How the data were processed

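The authors mapped total RNA reads to GRCm38 with BWA and found head-to-tail junctions with CIRI2 at default settings, per the study's methods. They deposited the counts as a table of circular reads by sample, neither normalized nor pooled; 1 column matching no label was not used. CircRNAs found in at least 2 replicates of a time point were kept. Fits used edgeR 4.0.16 under R 4.3.3 (quasi-likelihood test, TMM, default filter on low counts, Benjamini-Hochberg adjustment over all circRNAs tested, threshold 0.05), with 18 samples for a time course and 36 for the tissues, and were tested on simulated data. Scaled on circular reads, they do not see changes common to every circRNA; the linear counts that the authors joined to them for DESeq2 were not used here. Shares were compared over host genes with reads in at least 12 samples per tissue (Python 3.11.15, numpy 2.4.6, pandas 2.3.3). Exons, residues and junction bases came from GENCODE M21. DESeq2 1.42.0, other scalings and filters, sums per host gene, the replicate number as a block and leaving out each sample were alternatives. Genes, lists and tests were chosen with earlier results of these data known. By rule the text names each gene's main circle, the other circles kept, the relatives with the most reads and the 2 circRNAs most like each main circle; the Dennd1b circle of the rule had been taken for the most abundant, which it is not, so both are given. Depth was 6754 to 73252 circular reads per sample, and intervals cover the spread between samples.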

Additional observations from a re-analysis of the deposited data

Results flagged for a closer look

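In 8 of 52 sets of 9 light or 9 dark samples of a tissue, covering each circle tested and each gene's sum, the highest or lowest sample stood apart from the other 8 by a larger part of the range than Dixon's 95% limit for 9 samples. For independent sets of normally distributed values chance gives about 1 such set in 20. These sets share samples, the sums contain the single circles and many values rest on few reads, so the 8 cannot be measured against that rate. Values are circular reads per 10000 TMM-scaled reads.

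Of these 8, 3 were hippocampus ZT13 replicate 1 in the dark phase, the sample with the fewest circular reads (6754). All Dennd1b circles summed to 40.2 there against 83.0 to 123.3 in the other dark samples, the Dennd1b circle of exons 6 to 9 was listed at 0 against 15.9 to 24.7, and the main Hivep2 circle stood at 6.34 on 3 reads against 14.2 to 18.8. Its 19 Dennd1b reads included 8 of exons 4 to 14 and 4 of exons 10 to 14.

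A further 3 were frontal cortex ZT9 replicate 3 in the light phase, the frontal cortex sample with the fewest circular reads (8107). The main Hivep2 circle stood at 54.4 on 28 reads against 11.4 to 25.1 in the other light samples, all Hivep2 circles summed to 66.0 against 24.7 to 40.6, and the Dennd1b circle of exons 6 to 9 was listed at 0 against 14.6 to 19.8. The part of depth in these values was not tested.

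In frontal cortex ZT17 replicate 3 the main Ssbp2 circle was the lowest of the dark samples, at 70.5 on 80 reads against 89.1 to 102.0. In frontal cortex ZT21 replicate 2 the Dennd1b circle of exons 11 to 14 was the highest, at 11.8 on 19 reads against 3.78 to 7.54.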

How the results depend on the processing

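The called tissue differences of Dennd1b exons 6 to 14 (log2 -1.90 to -1.19 over leaving out each sample), Dennd1b exons 10 to 14 (-0.60 to -0.46), Ssbp2 exons 2 to 4 (0.34 to 0.44) and Hivep2 exons 2 to 3 (0.39 to 0.51) kept their direction in every setting run. The -1.90 came from leaving out the frontal cortex sample that held all 3 reads of ZT9. With no scaling, Ssbp2 (0.22, adjusted p = 0.469) and Hivep2 (0.23, adjusted p = 0.451) no longer passed, and the 150 circRNAs called split into 32 higher in the frontal cortex and 118 in the hippocampus. With no filter on low counts, Hivep2 (adjusted p = 0.199) and Dennd1b exons 10 to 14 (adjusted p = 0.209) did not pass among 6656 tested, and 346 were called against 217. Of circles that did not pass, the Hivep2 circle starting 3 nt upstream ran from 0.07 to 1.46 and passed without any 1 of 4 samples. Among these, hippocampus ZT5 replicate 1 (1.46 without it) held all 4 reads of its time point. Hippocampus ZT13 replicate 2 (1.35 without it) held all 2 reads of its own. Leaving out either left a group with no reads, so these values do not measure the size of the difference. Dennd1b exons 4 to 14 passed without hippocampus ZT13 replicate 3 (-0.61). Dennd1b exons 4 to 9 passed without hippocampus ZT17 replicate 3 as well.

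No frontal cortex time test called a circle of these genes under any setting, although without the filter 521 of 4790 circRNAs were called rhythmic and 12 differed among time points; DESeq2 gave 1 and 0, and sums per host gene gave 0 among time points, where leaving out samples gave 0 to 1. Host genes called for the share numbered 9 of 294 at 10 or more reads, 5 of 798 over kept circles and 0 to 5 over leaving out samples. The cause was not tested. In the hippocampus, no scaling moved the dark-light value of Ssbp2 to -0.62 and the fitted amplitudes (log2) of Ssbp2 and Hivep2 to 0.73 and 0.67 from 0.36 and 0.27. Leaving out the 3 samples of extreme depth together was chosen after seeing the data.

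Deviations from group means had a mean r of -0.02 over 18 pairs of tissues with the same replicate number, with 1 pair over 0.1. Samples of 1 animal need not share such deviations, so this cannot decide whether the numbers pair the samples. With the replicate number as a block, 168 circRNAs differed between tissues, the same 4 circles passed (adjusted p of 0.0108, 0.0237, 0.0108 and 0.0419 for Ssbp2, Hivep2, Dennd1b exons 6 to 14 and exons 10 to 14), 0 host genes were called for the share (82 at an unadjusted p under 0.05), and 0 circRNAs were rhythmic, 1 differed among time points and 0 between phases in the frontal cortex. Depth limits the minor circles: a circle of 1 read in a sample is not listed.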
